A study of Mus musculus with 6 samples.

Results

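The collagen genes are the protein-coding mouse genes whose symbol has the form Col, a type number, the letter a and a chain number. They were found by mapping the Ensembl identifiers of the deposited tables to mouse symbols, and 44 of the 54532 genes in the tables met this rule. Their RNA was measured in the cervical spinal cord of C57BL/6 mice with 1 library per mouse. In 3 mice, 50 mg of cream with 5% imiquimod, an agonist of Toll-like receptor 7, had been put on the shaved nape daily for 2 days to induce a psoriasis-like dermatitis, and 3 mice had received the same amount of vehicle cream. Neither age nor sex of the mice is stated in the labels.

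Collagens are trimers of alpha chains wound around each other through repeats of glycine and 2 further residues. Fibrillar collagens (types I, II, III, V, XI, XXIV and XXVII) form the banded fibrils of connective tissue, and in the cord they are made mainly by fibroblasts of the meninges and around larger vessels. Type IV collagen forms the sheet-like network of basement membranes, which in the cord surround blood vessels and line the pial surface. Other types decorate fibrils, form beaded filaments or span the cell membrane.

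Neuronal, glial and cervical identity of the tissue was checked first. All 10 neuronal, 8 astrocyte and 7 oligodendrocyte markers and all 8 anterior Hox genes listed for the cervical cord entered the fit, whereas 2 of 6 posterior Hox genes did and another 2 were at 0 in every library. Within the anterior list the libraries differed: Hoxc8, of its more posterior end, was 16.9, 16.6 and 15.0 FPKM (fragments per kilobase of exon and per unit of library depth) in vehicle and 1.52, 11.9 and 1.63 FPKM in imiquimod replicates 1 to 3. Imiquimod replicates 1 and 3 thus stood apart from the other libraries in this gene. Of the 8 anterior Hox genes 1 passed the limma test, Hoxa4, as lower (limma adjusted p = 0.044), and Hoxc8 did not (limma adjusted p = 0.0757). Of 6 tested motor neuron markers 3 passed (50%), all lower, where 14.1% of all tested genes passed and 5.34% were lower. The part of the segment level dissected in the collagen values was not tested. The recovered depth ran from 18174420 to 23200999 fragments per library, and every imiquimod library was deeper than every vehicle library. Libraries of the imiquimod group stood apart in markers of the tissue around the cord. The summed level of 13 meningeal fibroblast markers, leaving out Ptgds, was 50.9, 84.2 and 78.0 FPKM in the vehicle libraries and 85.2, 21.3 and 233 FPKM in imiquimod replicates 1 to 3. Imiquimod replicate 2 was thus the lowest of the 6 libraries and imiquimod replicate 3 the highest. With Ptgds, which is also made by oligodendrocytes, the 14 markers summed to 542 to 712 FPKM in vehicle and 774 to 1460 FPKM in imiquimod libraries, and none was at 0 in every library. In bulk tissue, fewer cells of a type and less RNA per cell cannot be told apart.

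The genes of type IV collagen lie in head-to-head pairs, and the stretches between or across their annotated starts are shown because 1 pair moved and the others did not pass or were too low to test. Sequences are of the plus strand, 5′ to 3′, from RefSeq on GRCm38.p6, which held a promoter window for 35 of the 44 genes, and starts are those of GENCODE M21. The first is the overlap of the Col4a1 and Col4a2 transcripts, the second the gap between Col4a4 and Col4a3, and capitals mark the GC box GGGCGG.
Col4a1 and Col4a2, chr8:11312805-11312826: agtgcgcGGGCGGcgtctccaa
Col4a4 and Col4a3, chr1:82586850-82586920: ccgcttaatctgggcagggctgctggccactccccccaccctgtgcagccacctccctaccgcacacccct
The first transcripts of Col4a1 (minus strand) and Col4a2 (plus strand) overlap by 22 bases in the untranslated part of each gene's first exon. The gap of Col4a4 and Col4a3 is 71 bases and holds no annotated exon, and that of Col4a6 and Col4a5 on chromosome X is 1308 bases. In windows of 300 bases, 250 before and 50 from the start on, GGGCGG on either strand occurred 1 time at Col4a1 and 3 times at Col4a2, and in 35.7% of 32851 RefSeq promoter windows. CCAAT occurred 1 time in each window and in 37.4% of all windows. TATAAA occurred in neither, and in 13.6% of all windows. The windows of Col4a1 and Col4a2 share 78 bases, so their matches are not independent, and a match is a description of letters, not of a bound factor.

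Of the collagen genes, 4 were higher in the imiquimod cords, namely the basement membrane genes Col4a1 and Col4a2 and the fibril-associated genes Col20a1 and Col16a1. No collagen gene passed the test in the other direction, and none of the fibrillar genes passed. At an unadjusted p under 0.05 in limma, 5 were higher and 2 (Col27a1 and Col14a1) lower. The share of all tested genes at this unadjusted threshold was not counted. The unadjusted counts here and below thus have no background to be read against. Of the 44 genes, 30 had a mean of at least 0.5 FPKM in either group and entered the fit of limma on log2(FPKM + 0.1), with p adjusted by Benjamini-Hochberg over all 16513 tested genes. Of these 30, 26 met the minimum in both groups and 4 (Col27a1, Col4a6, Col14a1 and Col26a1) in vehicle cords only. The 4 calls are 13.3% of the 30, and 14.1% of all tested genes were called (8.74% higher and 5.34% lower), so the share called among collagen genes was near that of all genes. The higher genes were 62.1% of the calls over all genes, and 44.4% (1255 higher, 1569 lower) once each library's trends on exon length and GC content were removed. The same 4 collagen genes were not all called in each alternative, as given beside each. The median log2 change was -0.15 over the 30 collagen genes and -0.01 over all tested genes, with 10 collagen genes above 0 and 20 below. In 8 of the 30 the groups did not overlap (6 higher, 2 lower), or 26.7%, where 37.9% of all tested genes did not.

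**Figure D1:**
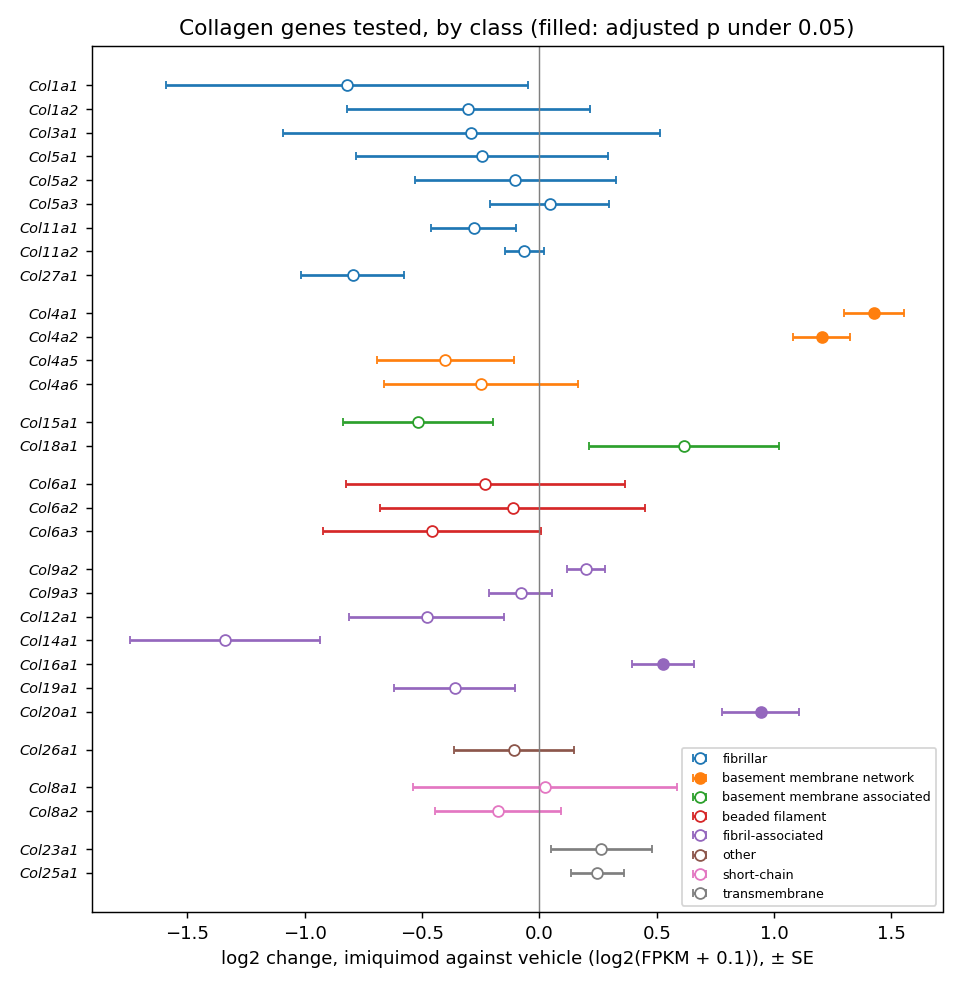
Log2 change of imiquimod against vehicle cords on the log2(FPKM + 0.1) scale (x axis, ± SE from limma, 3 libraries per group) for the 30 collagen genes tested (y axis), coloured by class, with filled points for adjusted p under 0.05. Col4a1 and Col4a2 lie at 1.42 and 1.20, apart from the other collagen genes, and Col1a1 and Col3a1 carry wide errors (SE 0.77 and 0.80).

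Col4a1 and Col4a2 encode the chains of the type IV trimer found in nearly all basement membranes, those of blood vessels included. Col4a1 (chromosome 8, 11198423 to 11312826, minus strand, mm10) was 8.58, 11.8 and 9.52 FPKM in vehicle replicates 1 to 3 and 24.2, 27.1 and 29.1 FPKM in imiquimod replicates 1 to 3. The lowest imiquimod library lay above the highest vehicle library. The means were 9.98 ± 1.66 and 26.8 ± 2.47 FPKM (SD, n = 3 each), and the log2 change was 1.42 ± 0.13 (SE, limma adjusted p = 0.00158). These values rest on 1134 to 1534 recovered fragments per vehicle library and 3718 to 5091 per imiquimod library. Col4a2 (chromosome 8, 11312805 to 11449287, plus strand) was 8.91, 11.2 and 8.40 FPKM in vehicle and 19.8, 22.1 and 23.8 FPKM in imiquimod replicates 1 to 3, again without overlap. Its means were 9.50 ± 1.48 and 21.9 ± 2.04 FPKM (SD, n = 3 each), and it rose by 1.20 ± 0.12 on the log2 scale (limma adjusted p = 0.00243). Imiquimod replicate 2 lay in both genes between the other imiquimod libraries. Both genes were called in all 16 alternatives, with log2 changes of 1.32 to 1.55 for Col4a1 and 1.12 to 1.32 for Col4a2.

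**Figure D2:**
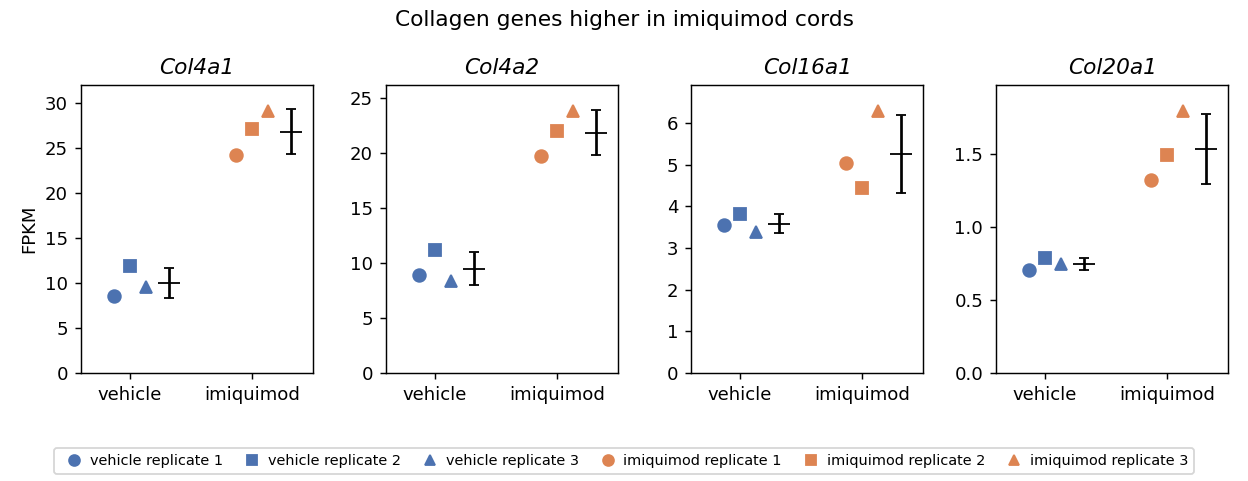
FPKM (y axis, from 0) of the 4 collagen genes called higher, in vehicle and imiquimod cords (x axis), with 1 symbol per replicate and the mean ± SD of 3 libraries as a black bar beside them. Every imiquimod library lies above every vehicle library in the 4 panels, and Col4a1 goes from 8.58 to 11.8 FPKM in vehicle to 24.2 to 29.1 FPKM in imiquimod libraries.

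The ratio of Col4a1 to Col4a2, both per length, was 0.963, 1.06 and 1.13 in vehicle and 1.22, 1.23 and 1.22 in imiquimod libraries. The chain ratio was thus higher in each imiquimod library than in any vehicle library (exact permutation test, two-sided, p = 0.1, below which 6 libraries in groups of 3 cannot go, and 0.2 after Benjamini-Hochberg adjustment over 8 such ratios). Together the 2 genes made up 18.9%, 16.9% and 18.0% of the summed FPKM of all 44 collagen genes in vehicle libraries and 35.2%, 47.1% and 28.7% in imiquimod libraries. By mean FPKM they ranked 3 and 4 among the collagen genes in vehicle cords, after Col1a1 and Col11a2, and 1 and 2 in imiquimod cords.

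Endothelial cells are a main source of these chains in the cord, and the endothelial markers moved as well. Of 14 markers 7 were higher and 2 lower, with a median log2 change of 0.46. The share called was 64.3%, where 14.1% of all tested genes were called. The list summed to 261 to 305 FPKM in vehicle and 357 to 387 FPKM in imiquimod libraries. Abundant markers weigh most in this sum. Mean Cldn5 was 41.7 against 92.2 FPKM and mean Ly6c1 46.6 against 94.3 FPKM. Itm2a, 1 of the 2 lower markers, was 51.9 against 21.3 FPKM. Slc2a1, the most abundant of the list in vehicle by mean FPKM, was 78.3 against 81.9 FPKM (limma adjusted p = 0.705). Pecam1, an adhesion protein of endothelial junctions, was 5.91 ± 0.424 against 14.4 ± 1.12 FPKM (SD, n = 3 each; log2 change 1.27 ± 0.09, limma adjusted p = 7.35e-04). Slco1a4, an organic anion transporter of the blood-brain barrier, went the other way (11.2 ± 1.01 against 5.95 ± 0.861 FPKM, limma adjusted p = 0.00573). Of 13 pericyte and smooth muscle markers 12 were tested, of which 2 were higher and 1 lower (25% called). None of either list was at 0 in every library. The part of these markers in the values of Col4a1 and Col4a2 was not tested.

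The remaining type IV genes did not follow. Col4a5 and Col4a6 encode chains of a second type IV network, found around smooth muscle among other sites. Col4a5 was 2.00, 2.56 and 1.59 FPKM in vehicle and 1.35, 1.07 and 2.32 FPKM in imiquimod replicates 1 to 3, with overlapping groups (log2 change -0.40 ± 0.29, limma adjusted p = 0.40). Col4a6 was 0.517, 0.491 and 0.513 FPKM against 0.377, 0.213 and 0.791 FPKM (-0.25 ± 0.41, limma adjusted p = 0.722). The 95% interval of the Col4a5 change ran from -1.09 to 0.29 and that of Col4a6 from -1.23 to 0.73, both short of the 1.12 at which the interval of Col4a1 begins. Whether the changes of Col4a1 and Col4a5 differ was not tested. Col4a3 and Col4a4, chains of the kidney filter's basement membrane, did not enter the fit. Col4a4 was 0.128, 0.309 and 0.188 FPKM in vehicle and 0.119, 0.0843 and 0.566 FPKM in imiquimod libraries, that is, lowest in imiquimod replicate 2 and highest in imiquimod replicate 3. Col4a3 had the same lowest and highest library, at 0.0538 and 0.286 FPKM.

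A further 3 collagens sit at basement membranes without forming their network. Col18a1, whose C-terminal fragment is endostatin, was 2.20, 2.48 and 2.45 FPKM in vehicle and 4.01, 1.85 and 6.69 FPKM in imiquimod replicates 1 to 3. Imiquimod replicate 2 lay below all vehicle libraries and the others above them, and the gene did not pass (0.62 ± 0.40, limma adjusted p = 0.35). With 1 library left out, its log2 change ran from 0.20 to 1.09 (limma adjusted p from 0.0216 to 0.712). It was called in 1 of 16 alternatives, the fit without imiquimod replicate 2. Col15a1, its closest relative, was 2.24, 2.57 and 2.41 against 1.73, 0.958 and 2.66 FPKM (-0.52 ± 0.32, limma adjusted p = 0.32). Col7a1, of the anchoring fibrils below epithelia, was 0.139 to 0.246 FPKM and did not enter the fit.

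None of the 9 tested fibrillar collagens passed (limma adjusted p from 0.0549 to 0.926), and their median log2 change was -0.28. At an unadjusted p under 0.05 the count was 1 of 9, Col27a1, which entered the fit through its vehicle mean alone. Col1a1, the major chain of type I collagen (chromosome 11, 94936224 to 94953042), was 7.86, 22.5 and 9.75 FPKM in vehicle and 7.74, 2.07 and 18.8 FPKM in imiquimod replicates 1 to 3. The groups overlapped throughout, with vehicle replicate 2 and imiquimod replicate 3 high and imiquimod replicate 2 lowest (log2 change -0.82 ± 0.77, limma adjusted p = 0.514). Col1a2, its partner chain, was 6.91, 13.6 and 7.82 FPKM against 7.25, 3.46 and 15.4 FPKM (-0.30 ± 0.52). Col3a1, the chain of type III collagen in vessel walls and loose tissue, was 3.88, 10.2 and 4.98 FPKM against 5.75, 1.29 and 14.0 FPKM (-0.29 ± 0.80). All 3 genes had the same order at the extremes within each group. Their 95% intervals were wide, from -1.53 to 0.93 for Col1a2 and from -2.19 to 1.61 for Col3a1, so a change of Col3a1 of 2-fold in either direction lies inside its interval.

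**Figure D3:**
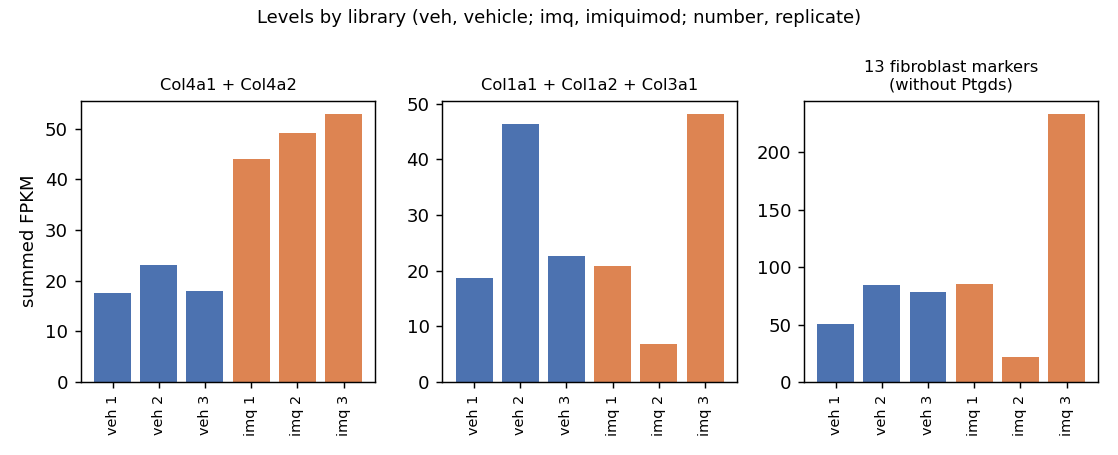
Summed FPKM by library (bars from 0, blue vehicle and orange imiquimod, replicate number on the x axis) of Col4a1 and Col4a2, of Col1a1, Col1a2 and Col3a1, and of 13 meningeal fibroblast markers. The Col4a1 and Col4a2 sum separates the groups, whereas imiquimod replicate 2 is lowest in the other panels.

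The summed FPKM of Col1a1, Col1a2 and Col3a1 was 18.6, 46.3 and 22.6 in vehicle and 20.7, 6.82 and 48.1 in imiquimod replicates 1 to 3. Imiquimod replicates 2 and 3 were also the lowest and highest in the fibroblast marker sum. Vehicle replicate 2, at 46.3 FPKM in these 3 collagens, had 84.2 FPKM of the fibroblast markers. Imiquimod replicate 1, at 20.7 FPKM, lay between vehicle replicates 1 and 3 in the collagens and had 85.2 FPKM of the markers. Of the 14 fibroblast markers 13 were tested, 2 were higher and none was lower (15.4% called, where 14.1% of all tested genes were). The part of fibroblast content in the collagen values was not tested. Without imiquimod replicate 2 the sign of the change turned in 5 fibrillar genes, for example to 0.61 for Col3a1 (limma adjusted p = 0.445), and still none passed.

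Type V collagen, which starts and limits fibrils of type I, followed the same libraries. Col5a1 was 0.885, 1.46 and 1.20 FPKM in vehicle and 0.874, 0.406 and 2.34 FPKM in imiquimod libraries (-0.24 ± 0.54). Col5a2 was 1.21, 1.85 and 1.23 FPKM against 1.38, 0.639 and 2.41 FPKM (-0.10 ± 0.43). Col5a3 was high in imiquimod replicate 3 alone, at 1.33, 1.65 and 1.44 FPKM against 1.19, 1.25 and 2.31 FPKM (0.04 ± 0.25).

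Type XI collagen, best known from cartilage, had another pattern. By mean FPKM Col11a2 (chromosome 17) ranked 2 among the collagen genes of the vehicle cords, at 9.97, 10.9 and 9.47 FPKM. It stood at 10.01, 10.1 and 8.88 FPKM in imiquimod replicates 1 to 3. Its vehicle mean of 10.1 FPKM was near the 9.98 FPKM of Col4a1, and the order of the genes differed among the vehicle libraries. Its log2 change was -0.07 ± 0.08 with a 95% interval of -0.26 to 0.13 (limma adjusted p = 0.635). Each of the cartilage and bone markers was below it in every library. Of the 11 listed, 5 were too low to test, 1 was higher and 2 were lower, and the list summed to 15.7 to 18.8 FPKM over all libraries, of which Sox9, also made by astrocytes, gave 5.79 to 8.26 FPKM. Col11a1 was 1.73, 1.70 and 1.71 FPKM in vehicle and 1.29, 1.14 and 1.84 FPKM in imiquimod libraries (-0.28 ± 0.18, limma adjusted p = 0.339). Col27a1, of a fibrillar branch with Col24a1, was 0.959, 0.791 and 0.915 FPKM in vehicle and 0.380, 0.505 and 0.530 FPKM in imiquimod libraries. Its groups did not overlap, but it missed the threshold (-0.80 ± 0.22, limma adjusted p = 0.0549). It passed with limma without the mean-variance trend (0.0233) and with voom on recovered fragments (0.00674). It entered the fit through its vehicle mean alone, the group in which it was higher. Its relative Col24a1 (0.188 to 0.378 FPKM) and the cartilage gene Col2a1 (0.189 to 0.309 FPKM) did not enter the fit.

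Fibril-associated collagens bind to the surface of fibrils, and 2 of their 7 tested genes rose. Col20a1 (chromosome 2, 180986535 to 181018363) was 0.703, 0.783 and 0.746 FPKM in vehicle and 1.32, 1.49 and 1.79 FPKM in imiquimod libraries, with no overlap. It rose by 0.94 ± 0.16 on the log2 scale (limma adjusted p = 0.0132), on 64 to 75 fragments per vehicle and 140 to 216 per imiquimod library. The call ended without vehicle replicate 1 (0.0554) and was kept in the other 15 alternatives. Another transcript, BX649560.1, shares 79 exon bases with it on the same strand, or 1.54% of its exon length. Col16a1 (chromosome 4, 130047840 to 130099283) was 3.54, 3.83 and 3.38 FPKM in vehicle and 5.04, 4.44 and 6.29 FPKM in imiquimod libraries, also without overlap (0.53 ± 0.13, limma adjusted p = 0.0435). Its call is close to the threshold. It was kept without imiquimod replicate 2 but lost when any other library was left out. It was also lost when low genes were not filtered, when limma ran without the trend and with the replicate number as a block. The limma adjusted p in these alternatives ran from 0.0709 to 0.135.

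Col14a1, a fibril-associated collagen of skin and tendon, was the collagen gene furthest in the other direction. It was 0.524, 0.623 and 0.547 FPKM in vehicle and 0.152, 0.0829 and 0.292 FPKM in imiquimod libraries, without overlap, and missed the threshold (-1.34 ± 0.40, limma adjusted p = 0.0716). It had 65 to 76 fragments per vehicle and 13 to 48 per imiquimod library. As with Col27a1, it passed without the trend (0.0398) and with voom (0.0130). Both genes entered the fit through the vehicle mean alone, the group in which they were higher. Their passes therefore lend no support to a fall of collagen genes. Col12a1, its close relative, was 0.980, 1.68 and 0.954 FPKM against 0.615, 0.652 and 1.29 FPKM (-0.48 ± 0.33). Lowest in Col14a1 was imiquimod replicate 2, as for the type I and type III genes.

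Type IX collagen, of cartilage fibrils, has 3 chains, and neither of the 2 tested passed. Col9a2 was 3.87, 3.87 and 3.68 FPKM in vehicle and 4.70, 4.09 and 4.39 FPKM in imiquimod libraries, without overlap (0.20 ± 0.08, limma adjusted p = 0.152). Col9a3 was 6.92, 6.85 and 6.62 FPKM against 7.55, 6.76 and 5.20 FPKM (-0.08 ± 0.13). Col9a1 was too low for the fit, at 0.252 to 0.272 FPKM in vehicle and 0.353 to 0.536 FPKM in imiquimod libraries, again without overlap. Col19a1, made by neurons in the brain, was 0.727 ± 0.0679 against 0.557 ± 0.167 FPKM (SD, n = 3 each; -0.36 ± 0.26), and Col22a1 was 0.217 to 0.312 FPKM and not tested.

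Type VI collagen forms beaded filaments around cells, and its 3 tested chains were, like the type I genes, lowest in imiquimod replicate 2. The spread in imiquimod libraries was 6.32-fold for Col6a1 and 5.06-fold for Col6a2. That of Col6a3 was 2.86-fold, near its 2.71-fold in vehicle libraries. Col6a1 was 3.41, 5.90 and 4.86 FPKM in vehicle and 3.65, 1.59 and 10.1 FPKM in imiquimod libraries (-0.23 ± 0.60). Col6a2, from the neighbouring gene on chromosome 10, was 1.35, 3.18 and 2.05 FPKM against 1.57, 0.918 and 4.65 FPKM (-0.11 ± 0.57). Col6a3 was 0.453, 1.23 and 0.534 FPKM against 0.385, 0.295 and 0.844 FPKM (-0.46 ± 0.46). The limma adjusted p of these 3 ran from 0.548 to 0.914. Col6a4, Col6a5 and Col6a6 had 0 to 63 fragments per library and were not tested. The short-chain genes of sheet-like networks behaved alike at the extremes, with Col8a1 at 0.280 FPKM in imiquimod replicate 2 and 1.94 FPKM in imiquimod replicate 3, and Col8a2 at 0.628 and 1.24 FPKM. Col10a1, of growth plate cartilage, had at most 6 fragments in a library.

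The transmembrane collagens are anchored in the cell surface. Col25a1, a gene expressed by neurons, was 2.54, 2.93 and 2.86 FPKM in vehicle and 3.04, 3.16 and 3.76 FPKM in imiquimod libraries. The groups did not overlap, and the gene did not pass (0.25 ± 0.11, limma adjusted p = 0.192), except with the length and GC trends removed (0.0472). Col23a1 was 3.56, 3.39 and 4.20 FPKM against 4.58, 3.23 and 6.00 FPKM (0.26 ± 0.21). Col13a1 (0.117 to 0.592 FPKM) and Col17a1 of hemidesmosomes (0 to 0.0444 FPKM) were not tested. Of the unclassed genes, Col26a1 was 0.507 ± 0.0385 against 0.466 ± 0.085 FPKM (SD, n = 3 each; -0.11 ± 0.26). Col28a1, known from Schwann cell basement membranes, was 0.346, 0.328 and 0.334 FPKM in vehicle and 0.326, 0.0638 and 0.600 FPKM in imiquimod libraries and was not tested.

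Across classes, the imiquimod mice differed more among themselves than the vehicle mice. The highest imiquimod library exceeded the lowest by a median of 2.04 times over the 30 tested collagen genes and by 1.23 times over the 16060 tested genes above 0 in every library. Among vehicle libraries the medians were 1.24 and 1.13 times. The spread in imiquimod libraries was 10.8-fold for Col3a1 and 9.06-fold for Col1a1, but 1.20-fold for Col4a1 and 1.21-fold for Col4a2. Imiquimod replicate 3 was the highest of the 3 imiquimod libraries in 26 of 30 collagen genes (86.7%) and in 4821 of those 16060 genes. Imiquimod replicate 2 was the lowest of the 6 libraries, with imiquimod replicate 3 above the others of its group, in 17 of 30 collagen genes (56.7%) and in 5.74% of all those genes. Many of the collagen genes share these deviations, so they are not independent of each other. Whether they share a source was not tested.

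**Figure D4:**
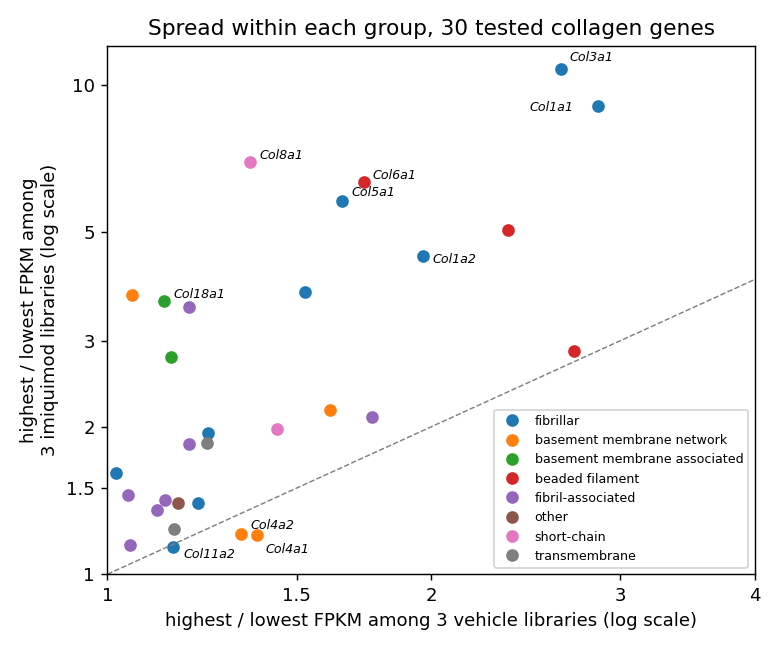
Highest over lowest FPKM among the 3 imiquimod libraries (y axis, log scale) against the same among the 3 vehicle libraries (x axis, log scale) for the 30 tested collagen genes, coloured by class, with equality as a dashed line. Col3a1 and Col1a1 lie at 10.8 and 9.06 on the y axis, and Col4a1 and Col4a2 at 1.20 and 1.21, below the line.

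Genes that make, place and remove collagen were counted from lists given with the collagen classes. Of 15 genes of prolyl and lysyl hydroxylation and glycosylation, which stabilise the helix and prepare cross-links, 2 were higher and none lower (median log2 change 0.17). Plod3, a lysyl hydroxylase that also adds glucose and acts on type IV collagen, was 8.21 ± 0.332 against 12.6 ± 1.54 FPKM (SD, n = 3 each; 0.60 ± 0.10, limma adjusted p = 0.0108). Colgalt1, which adds galactose to hydroxylysine, rose by 0.42 ± 0.11 (limma adjusted p = 0.0475), a call lost in 11 of 16 alternatives. Of 6 genes of folding and export Creb3l1, a transcription factor of secretory cells, rose (0.61 ± 0.15, limma adjusted p = 0.038). Of 7 tested genes of propeptide cleavage none passed in limma (2 lower at an unadjusted p under 0.05), and their median log2 change was -0.23. Of 6 tested cross-linking genes Loxl3, a lysyl oxidase, rose (0.62 ± 0.16, limma adjusted p = 0.047). The calls of Creb3l1 and Loxl3 survived the loss of imiquimod replicate 2 but of no other library, and also ended when low genes were not filtered.

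None of the 12 tested laminin, nidogen, perlecan and agrin genes passed in limma (1, Lama5, higher at an unadjusted p under 0.05). Their median log2 change was 0.12, and the changes ran from -0.29 for Lama2 to 0.66 for Lama5 (limma adjusted p = 0.503 and 0.0878). In Lama5 the groups did not overlap. The type IV genes Col4a1 and Col4a2, which passed, were at 1.42 and 1.20. Lamc1, the gamma chain of most laminins, was 10.7 ± 0.964 against 11.6 ± 2.99 FPKM (SD, n = 3 each; 0.08 ± 0.17), and Nid1, which links laminin to type IV collagen, was 12.1 ± 1.49 against 10.4 ± 2.96 FPKM (-0.24 ± 0.20). The difference between these genes and Col4a1 was not tested. Among 13 tested proteoglycans and matrix partners 2 rose and none fell. They were Thbs2, a thrombospondin that affects fibril assembly (0.62 ± 0.13, limma adjusted p = 0.0234), and Aspn, a leucine-rich proteoglycan that binds type I collagen (0.69 ± 0.17, limma adjusted p = 0.0381). The call of Thbs2 ended when any vehicle library was left out, and that of Aspn when any of the 6 was.

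Of 9 tested collagen receptors 1 rose. Lair1, an inhibitory collagen receptor of leukocytes, was 1.33, 1.65 and 1.42 FPKM in vehicle and 3.44, 3.07 and 3.53 FPKM in imiquimod libraries, without overlap (1.14 ± 0.12, limma adjusted p = 0.00242). Of 11 tested genes of collagen degradation and its control, 1 rose and 3 fell. Timp1, an inhibitor of matrix metalloproteinases, was 1.59, 1.42 and 1.27 FPKM in vehicle and 26.1, 16.2 and 43.2 FPKM in imiquimod libraries (4.12 ± 0.32, limma adjusted p = 0.00106). Ctsk, a lysosomal protease that cleaves collagen, fell by 0.73 ± 0.09 on the log2 scale (10.9 ± 1.18 against 6.49 ± 0.139 FPKM, SD, n = 3 each, limma adjusted p = 0.00425). Mmp15, a membrane-bound metalloproteinase, fell by 0.47 ± 0.08 (limma adjusted p = 0.0152), a call lost without vehicle replicate 1 or vehicle replicate 2. Mmp9, a gelatinase, fell by 0.45 ± 0.11 (limma adjusted p = 0.0423), a call lost in 9 of 16 alternatives. The shares called in these lists ran from 0% to 36.4%, where 14.1% of all tested genes were called.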

How the data were processed

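RNA from 3 vehicle and 3 imiquimod cervical cords was sequenced. The authors deposited 1 FPKM value per gene and library. HISAT2 2.0.5, featureCounts 1.5.0-p3, DESeq2 1.16.1 and mm10 are named in the submitters' processing notes, without roles. Annotation, strand setting and treatment of multi-mapped reads are not given in the labels, so reads of a gene and an antisense partner cannot be told apart. Symbols matched 54409 of 54532 identifiers. FPKM times exon length (GENCODE M21) gave whole fragments, within 0.05, for 97.4% to 97.6% of values under 1000 fragments. All 6 libraries gave whole values for 42 of the 44 collagen genes, and 2 libraries did for Col11a2 and for Col17a1.

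Values were tested as log2(FPKM + 0.1) by limma 3.58.1 (R 4.3.3), with its prior variance following the mean. A gene entered at a mean FPKM of 0.5 or more in 1 group or both, the threshold was an adjusted p of 0.05, and intervals are 95%. A log2 change on this scale understates that of low genes. The fit was tested on simulated data with known changes. It recovered 68.4% of 2-fold and 93.3% of 4-fold changes, and 7.05% of its calls were false. The simulated dispersion was 0.02 for all genes, so these shares do not carry over to genes of wide spread such as Col1a1 and Col3a1. Ratios were compared by exact permutation tests. These and the tables used SciPy 1.17.1, pandas 2.3.3 and NumPy 2.4.6 under Python 3.11.15, and figures matplotlib 3.10.9.

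The alternatives were other pseudocounts, filters and scaling, removal of length and GC trends, no trend, array weights, voom on recovered fragments, a replicate block and leaving out each library. Tested fibrillar and type IV genes and those that passed were named with each library's FPKM, and up to 3 called genes per direction of each pathway list. Other collagen genes are given by group means, range or library. Marker genes, Lamc1 and Nid1 were named after their values were seen. Members and lists were chosen with earlier results of these data known.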

Additional observations from a re-analysis of the deposited data

How the results depend on the processing

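The counts of type IV collagen genes called (2 higher, 0 lower) were the same in all 16 alternatives, and no fibrillar gene was called higher in any. Collagen genes called higher numbered 4, and 2 to 5 when 1 library was left out, with 2 without vehicle replicate 1 and 5 without imiquimod replicate 2. Collagen genes called lower numbered 0, but 2 without the trend and 2 with voom on recovered fragments (Col14a1 and the fibrillar gene Col27a1, so 1 fibrillar gene in each). Both had entered the fit through the vehicle mean alone. Over all genes, calls moved from 1444 higher and 882 lower to 894 and 436 with the replicate block, and to 660 to 1690 higher and 187 to 1296 lower without 1 library. With no filter 508 were lower, and 1569 with length and GC trends removed. The cause of these shifts was not tested. Same-numbered libraries did not deviate together (correlations of 0.02, -0.10 and -0.03 across genes, which are not independent), so the replicate block is only an alternative. It ended the call of Col16a1 (adjusted p = 0.0914).

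Among the 30 tested collagen genes 12 kept sign and side of the threshold in all alternatives, and 12 that did not pass changed sign in some. Without 1 library the log2 change ran from -1.55 to 0.008 for Col1a1, -0.84 to 0.23 for Col1a2, -1.06 to 0.61 for Col3a1, -0.84 to 0.29 for Col5a1, -0.52 to 0.36 for Col5a2, -0.25 to 0.21 for Col5a3, -0.65 to 0.10 for Col4a6, -0.90 to 0.39 for Col6a1, -0.74 to 0.37 for Col6a2, -0.19 to 0.0705 for Col9a3, -0.58 to 0.63 for Col8a1 and -0.40 to 0.039 for Col8a2. Col6a2 was also at 0.012 with array weights, and Col8a1 at -0.019 with a pseudocount of 0.01 and -0.0051 with voom. Lamc1, which did not pass, was at -0.1173 without imiquimod replicate 3. The sign turned in 9 collagen genes without imiquimod replicate 2. Depth limits the low members: tested collagen genes had from 13 fragments in a library upward.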
